A study of Mus musculus with 6 samples.

Results

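The genes described here are 6 fibroblast growth factor (FGF) ligands of the lung, Fgf1, Fgf2, Fgf7, Fgf9, Fgf10 and Fgf18, and the 4 FGF receptors with a kinase domain, Fgfr1, Fgfr2, Fgfr3 and Fgfr4. They were chosen by symbol, with no measured value in the rule, and are 10 of the 22911 genes named on the array. All 10 passed the filter on dim probes, which 16370 genes passed, and all 10 were well above background on each of the 6 arrays. They were measured in the lungs of male C57BL6 mice aged 10 weeks. Every mouse was starved for 16 h and then injected i.p. with LPS at 20 mg/kg, the bacterial lipopolysaccharide that starts endotoxaemia. Of the 6 mice, 3 were given saline and 3 were given rhTM, first 3 h and then 24 h after LPS, and the lungs were taken 30 h after LPS. rhTM is recombinant human thrombomodulin, a soluble form of the endothelial protein that binds thrombin. The RNA of each lung went onto its own 1-colour Agilent array, and no RNA was pooled. All 6 mice had LPS, so the arrays compare rhTM with saline in endotoxaemic lungs and hold no comparison with a healthy lung.

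FGF ligands are secreted proteins that bind heparan sulfate on the cell surface and in the matrix and, with it, bring pairs of receptors together. The paired receptors phosphorylate each other and the docking protein FRS2, and the signal runs on through the RAS and MAP kinase cascade, PI3 kinase and phospholipase C gamma. In the lung, FGF10 and FGF7 are made mainly by mesenchymal cells and act on the epithelium through a splice form of FGFR2. FGF9 is known from mesothelium and epithelium and acts on the mesenchyme, FGF18 is known from mesenchyme during the formation of alveoli, and FGF1 and FGF2 bind a wide range of the receptors. The splice forms of the receptors were not told apart here.

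Values are given as relative signal, which is the processed signal of the gene's brightest probe divided by the 75th percentile of all probes on the same array. Fold changes are log2 differences, rhTM minus saline. A relative signal depends on how well the probe hybridises, so the levels of different genes are not set against each other. In a whole lung, fewer cells of a type and less RNA per cell cannot be told apart. Defining genes of lung epithelium were bright on every array, with a relative signal of 482 to 828 for Sftpc of alveolar type 2 cells, 133 to 173 for Ager of alveolar type 1 cells and 471 to 658 for Scgb1a1 of airway club cells.

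The assignment of 2 arrays was not settled. In the authors' table of processed values, the column of saline replicate 1 matched the scanner output of rhTM replicate 2 at 99.8% of probes to within 0.1%, and the column of rhTM replicate 2 matched the scanner output of saline replicate 1 at 99.8%. Their match to the scanner output under their own label was 0.138% and 0.136%. Values under the scanner assignment are the main ones and are called as scanned. Values under the assignment of the table are called as tabulated and are given beside them, as are values without both arrays. The arrays lay on 2 slides. Slide 2 held saline replicate 1 and rhTM replicate 3 as scanned, and rhTM replicates 2 and 3 as tabulated. A further array, rhTM replicate 1, stood apart under either assignment, with correlations of 0.979 to 0.988 with the other arrays. The highest correlation of each of the other 5 arrays lay between 0.993 and 0.995. For rhTM replicate 3 that was with saline replicate 1 as scanned, on the same slide (0.994), and its other correlations were 0.982 to 0.987. Results are also given without rhTM replicate 1.

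Promoters were looked up because 7 of the 10 members were lowest on the same array while Fgf2 was highest there, and those of Fgf2, and of Fgf7 and Fgf10 from among the 7, are shown. Of the 10 members, 8 had an entry in the RefSeq promoter table of GRCm38.p6, and Fgf1 and Fgfr1 were not matched. Each sequence below is the 250 bases before the annotated start on the strand of the gene, 5′ to 3′, and capitals mark a GC box, the letters GGGCGG on either strand.
Fgf2, chr3:37348403-37348652, plus strand: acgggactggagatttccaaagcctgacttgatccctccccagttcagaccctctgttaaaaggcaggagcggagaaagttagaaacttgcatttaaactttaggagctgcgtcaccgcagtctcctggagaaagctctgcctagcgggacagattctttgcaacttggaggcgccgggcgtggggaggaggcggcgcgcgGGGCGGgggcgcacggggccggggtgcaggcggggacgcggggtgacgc
Fgf7, chr2:126034408-126034657, plus strand: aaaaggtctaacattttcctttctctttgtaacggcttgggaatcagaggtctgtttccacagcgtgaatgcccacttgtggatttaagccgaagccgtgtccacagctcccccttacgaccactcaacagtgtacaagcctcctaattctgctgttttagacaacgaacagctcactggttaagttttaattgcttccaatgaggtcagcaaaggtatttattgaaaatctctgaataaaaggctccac
Fgf10, chr13:118714449-118714698, plus strand: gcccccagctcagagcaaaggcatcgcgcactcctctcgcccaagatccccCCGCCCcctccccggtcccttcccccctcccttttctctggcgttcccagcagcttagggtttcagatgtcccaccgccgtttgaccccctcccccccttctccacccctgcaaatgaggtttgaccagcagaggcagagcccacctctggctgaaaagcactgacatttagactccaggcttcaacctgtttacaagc
The Fgf2 sequence had a GC content of 62.4% with 20 CpG sites, and its GC box began 49 bases before the start. Fgf10 had a GC content of 61.2% with 8 CpG sites, and its GC box began 199 bases before the start. The Fgf7 sequence had a GC content of 43.6% with 6 CpG sites and no GC box. The median GC content was 52.4% over 32851 promoters of the same length. A set of 3 motifs was searched on both strands, and no match of 1 motif overlapped that of another in these members. One of the 2 Fgfr3 sequences held 2 GC boxes that overlapped each other by 1 base. The GC box was found in 5 of the 8 matched members (Fgf2, Fgf10, Fgf18, Fgfr3 and Fgfr4) and in 32.7% of all promoters. The letters TTCNNNGAA of a STAT site, found in 7.02% of all promoters, and TATAAA of a TATA box, found in 12.4%, were in none of the 8. A match of letters is a description of the sequence and not a measured binding site.

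No FGF ligand or receptor passed the test between rhTM-treated and saline-treated mice. By limma with Benjamini-Hochberg adjustment over 16370 genes, 0 of the 10 members passed, beside 0% of all genes, and the adjusted p was 0.99994 for each member. At an unadjusted p under 0.05 there were 0 members and 306 genes by limma, and 0 members and 340 genes by the methods' t-test. The mean was higher in the rhTM group for 3 members, Fgf2, Fgfr1 and Fgfr4, and lower for 7, beside 50.7% of all genes that were higher. The median log2 fold change of the members was -0.16, and that of all genes tested was 0.00259. No member had every rhTM array above every saline array, or every rhTM array below, beside 2.95% and 2.57% of all genes. With 3 arrays against 3 the exact two-sided permutation test cannot go below 0.10, and as scanned the members ranged from 0.20 to 0.80.

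**Figure D1:**
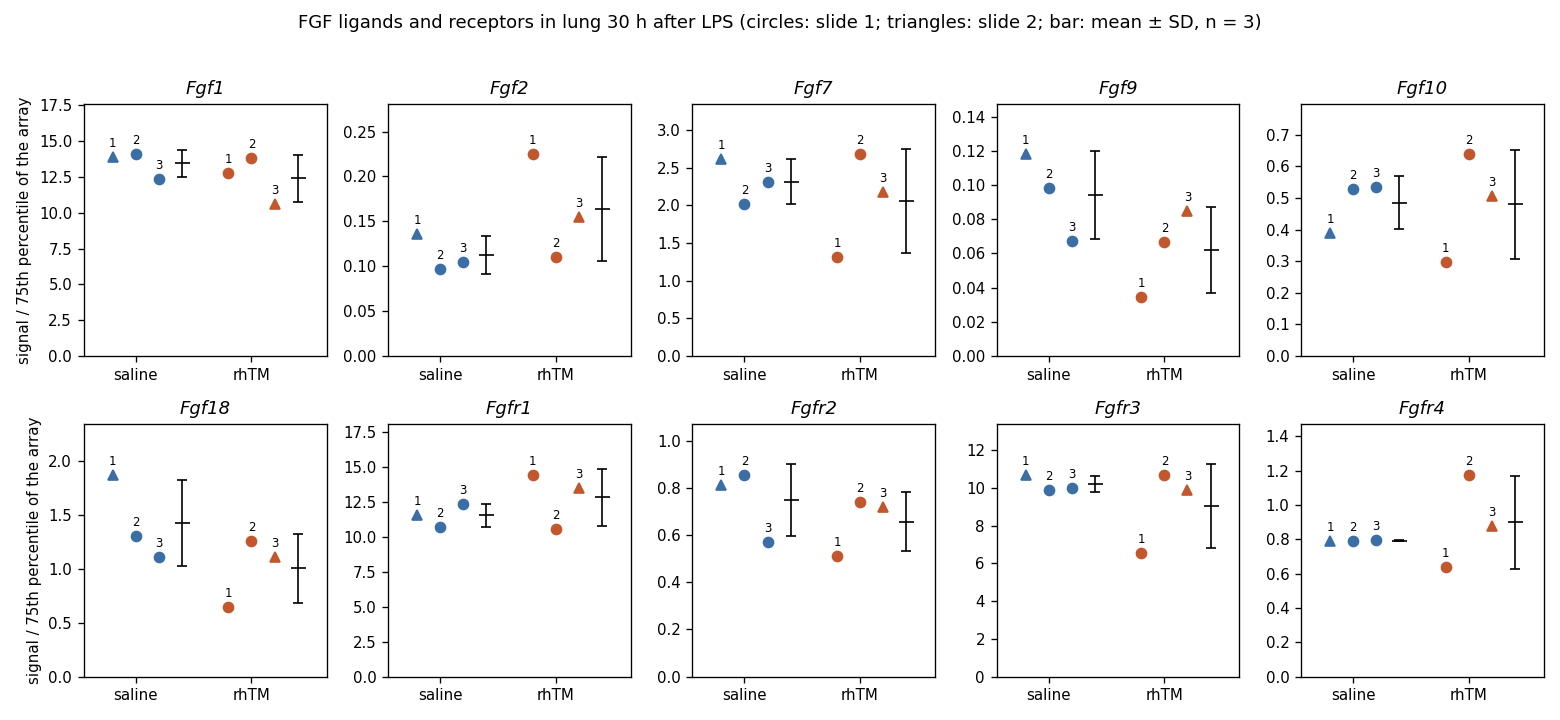
Relative signal (processed signal divided by the array's 75th percentile, linear axis from 0) of the 10 FGF ligands and receptors on each array, saline in blue and rhTM in orange. Numbers are replicate numbers, circles are slide 1 and triangles slide 2 as scanned, and black bars are the mean ± SD of 3 arrays. The groups overlap for every member, and rhTM replicate 1 is the lowest point in 7 panels and the highest in the panels of Fgf2 and Fgfr1.

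As tabulated, 0 of the 10 members passed limma's test, again beside 0% of all genes, with a lowest adjusted p over 16320 genes of 0.289. At an unadjusted p under 0.05 the table gave 2279 genes, 14.0% of all, and 2 members, Fgf2 and Fgf10. Fgf2 lay above on every rhTM array, beside 9.68% of all genes, and Fgf10 lay below on every rhTM array, beside 12.0% of all genes. The table put the mean of 2 members higher in the rhTM group, Fgf2 and Fgfr1, beside 46.0% of all genes. Without the 2 exchanged arrays, which leaves 2 arrays a group, 2 members lay wholly above (Fgf2 and Fgfr1, beside 19.8% of all genes) and 3 wholly below (Fgf10, Fgf18 and Fgfr3, beside 21.4%). By limma 0 members and 0 genes passed in that fit, where the lowest adjusted p over all genes was 0.665. In it 1 member had an unadjusted p under 0.05, beside 7.46% of all genes.
Adding the slide to the fit of the tabulated values, as a block, called 432 genes by limma and 1 member, Fgf2, among the genes called higher in rhTM, which were 1.15% of all genes. In that fit the whole of the difference rests on rhTM replicate 1 against the saline arrays, because as tabulated the other rhTM arrays share slide 2 with no saline array. In it 6 members had an unadjusted p under 0.05, beside 28.1% of all genes, and several log2 fold changes were larger in size than without the block. Apart from that of Fgf2, they were -1.13 for Fgf9, -0.93 for Fgf10, -0.92 for Fgf18, -0.82 for Fgf7 and -0.64 for Fgfr3. Also larger were -0.51 for Fgfr4, -0.48 for Fgfr2 and 0.37 for Fgfr1. The limma adjusted p values of the members in this list lay between 0.0527 and 0.245. The list is by growth in size and is not that of the members with an unadjusted p under 0.05.

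**Figure D2:**
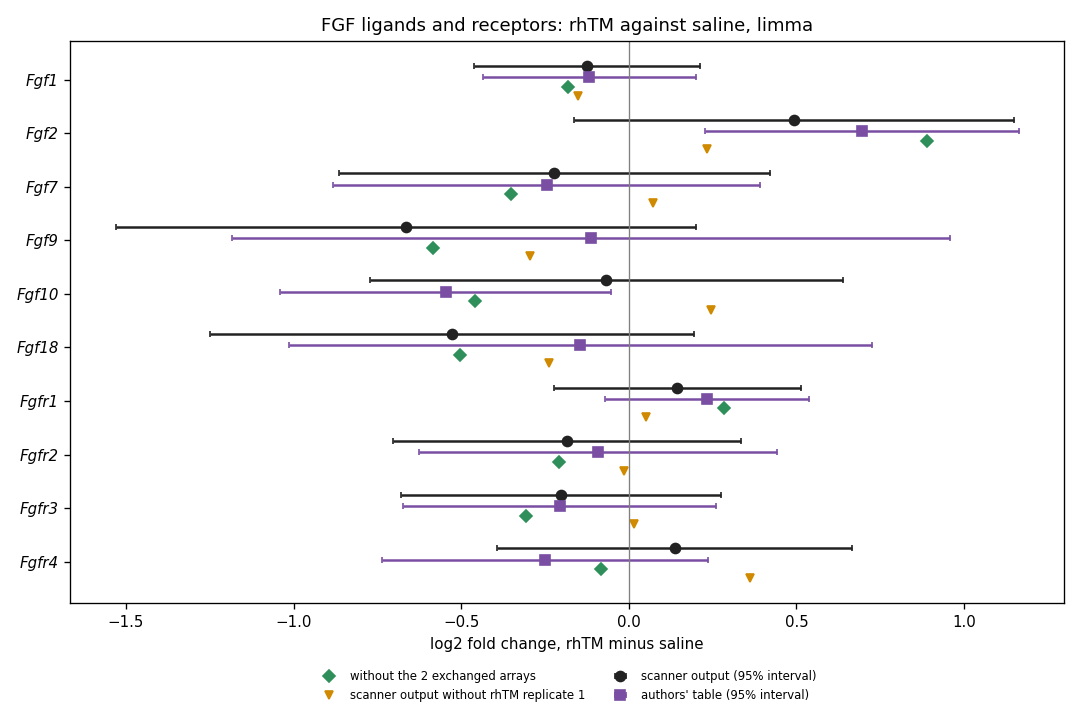
Log2 fold change, rhTM minus saline, of each member by limma, with 95% intervals for the scanner output (circles) and the authors' table (squares), and without intervals for the fit without the 2 exchanged arrays (diamonds) and without rhTM replicate 1 (triangles). Every interval as scanned spans 0, and as tabulated those of Fgf2, which lies above 0, and Fgf10, which lies below 0, do not.

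Fgf2 is the basic fibroblast growth factor held in the matrix by heparan sulfate. As scanned it had the largest log2 fold change above 0 among the members, not past the test. Its relative signal was 0.136, 0.0970 and 0.105 in saline replicates 1, 2 and 3, and 0.225, 0.110 and 0.155 in rhTM replicates 1, 2 and 3. The highest 2 values were those of rhTM replicates 1 and 3, and rhTM replicate 2 lay below saline replicate 1. The means were 0.113 ± 0.0208 in the saline group and 0.163 ± 0.0577 in the rhTM group (SD, n = 3), a log2 fold change of 0.49 with a 95% interval of -0.16 to 1.15. As tabulated the log2 fold change was 0.69 (0.23 to 1.16) with an adjusted p of 0.314 by limma, and without the exchanged arrays it was 0.89. Tabulated values with a slide block gave 1.12 with a limma adjusted p of 0.0378, the value that called it. Over all 18 alternatives its adjusted p ran from that value to 1.00. Leaving out rhTM replicate 1 brought the log2 fold change to 0.23 as scanned and to 0.48 as tabulated, where the limma adjusted p was 0.0736. Without that array as scanned, the values of Fgfr4 (0.36) and Fgf10 (0.25) were larger than that of Fgf2. A second Fgf2 probe was also highest on rhTM replicate 1 and gave a log2 fold change of 0.35 as scanned and 0.21 as tabulated.

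Fgf1, the acidic fibroblast growth factor, varied least among the ligands. Its relative signal was 13.9, 14.1 and 12.4 in the saline group and 12.7, 13.8 and 10.6 in the rhTM group. Only rhTM replicate 3 lay below all saline arrays, and all 6 values were within 1.33-fold of each other. Its log2 fold change came to -0.13 (95% interval -0.46 to 0.21) as scanned and -0.12 as tabulated. Without rhTM replicate 3, its lowest array, it was -0.018 and -0.0085 in the same order, and without rhTM replicate 2 it was -0.21 and -0.20. The other 2 Fgf1 probes also gave negative values by both assignments, of -0.45 and -0.23 as scanned, and the mean over its probes was -0.27.

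Fgf7, the keratinocyte growth factor, which acts on epithelial cells, had one rhTM array far below the rest. The saline arrays read 2.62, 2.02 and 2.30 and the rhTM arrays 1.31, 2.68 and 2.18 in relative signal. The lowest value was that of rhTM replicate 1 and the highest that of rhTM replicate 2, so the rhTM arrays enclosed the saline arrays. On the log2 scale the groups differed by -0.22 (95% interval -0.87 to 0.42) as scanned and -0.25 as tabulated. The difference became 0.071 and 0.043 in the same order without rhTM replicate 1.

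Fgf10, the ligand that drives branching of the lung and binds the epithelial form of FGFR2, had nearly equal means in both groups as scanned. Relative signals were 0.388, 0.530 and 0.535 in saline-treated mice and 0.297, 0.638 and 0.505 in rhTM-treated mice. As with Fgf7, rhTM replicate 1 was lowest and rhTM replicate 2 highest. The means were 0.484 ± 0.0837 and 0.480 ± 0.172 (SD, n = 3), a log2 fold change of -0.067 (95% interval -0.77 to 0.64). Exchanging saline replicate 1 and rhTM replicate 2, as the table does, made it -0.55 (-1.04 to -0.05) with a limma adjusted p of 0.337 and no overlap of the groups. Without both exchanged arrays it was -0.46. Without rhTM replicate 1 it was 0.25 as scanned and -0.35 as tabulated, and as scanned the sign also turned without saline replicate 2 (0.0056) or saline replicate 3 (0.013). A second, dim Fgf10 probe was well above background on 3 of the 6 arrays and did not pass the filter.

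The markers of fibroblasts, cells of the mesenchyme, did not move together on rhTM replicate 1. Their summed relative signal was 156 on that array, beside 269 and 273 on the other rhTM arrays and 247 to 287 in the saline group, and 3 of the 6 markers were lowest there and 1 was highest. Most of the low sum came from Inmt, since the other 5 markers summed to 111 on that array, within their range of 105 to 151 on the other arrays. Inmt, a methyltransferase abundant in lung fibroblasts, was at 45.5 on rhTM replicate 1 and at 118 to 167 on the other arrays. Col1a1, which encodes a collagen chain, was at 4.32 there and at 6.90 to 23.1 elsewhere, and Col1a2, which encodes its partner chain, was at 17.3 and at 25.7 to 51.4. Pdgfra, a growth factor receptor of fibroblasts, was highest on rhTM replicate 1, at 24.1 beside 16.6 to 22.4. Dcn, a matrix proteoglycan, was at 63.6 there and at 34.1 to 63.8 elsewhere, and Tcf21, a mesenchymal transcription factor, was at 1.26 there and at 1.10 to 1.35 elsewhere. None of the fibroblast markers was at 0. Their part in the values of Fgf7 and Fgf10 was not tested.

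Fgf9 had the largest log2 fold change in size of all members as scanned, and a wide interval. Its relative signal was 0.118, 0.0981 and 0.0670 in the saline group and 0.0346, 0.0664 and 0.0846 in the rhTM group. The highest 2 values were in the saline group and the lowest on rhTM replicate 1, but rhTM replicate 3 lay above saline replicate 3. The means were 0.0944 ± 0.0257 and 0.0619 ± 0.0253 (SD, n = 3), a log2 fold change of -0.67 (95% interval -1.53 to 0.20). It was -0.11 as tabulated, where Fgf2 had the largest, and -0.58 without the exchanged arrays. With normexp background correction it was -0.34, smaller in size than the -0.51 of Fgf18. Without rhTM replicate 1 it was -0.29 as scanned and 0.40 as tabulated, and as tabulated it also turned without saline replicate 2 (0.073). The Fgf9 probe was measured least precisely, with an error of 10.5% to 20.2% of the signal by the scanner software's own model, whereas that error was 10.0% to 11.8% for every other member.

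Beside Fgf9, all 4 mesothelial markers had a lower mean in the rhTM group, with log2 fold changes of -0.48 for Msln, -0.88 for Upk3b, -0.61 for Wt1 and -0.69 for Lrrn4, and a limma adjusted p of 0.99994 each. Their summed relative signal was 29.4 to 45.3 in the saline group and 20.3 to 32.3 in the rhTM group, and none was at 0. As tabulated the signs were the same, with a median of -0.71 beside -0.65 as scanned. As scanned these ranges overlap. As tabulated they do not, at 32.2 to 45.3 and 20.3 to 29.4, and 3 of the 4 markers (Msln, Upk3b and Lrrn4) lay wholly below in the rhTM group, beside 12.0% of all genes, with limma adjusted p values of 0.314 to 0.317. The part of mesothelium in the Fgf9 values was not tested.

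Fgf18, a ligand of the alveolar mesenchyme, was lowest on rhTM replicate 1 and highest on saline replicate 1. The saline arrays read 1.88, 1.30 and 1.11 and the rhTM arrays 0.648, 1.26 and 1.11 in relative signal. Apart from those 2 arrays the groups lay close together, between 1.11 and 1.30. The log2 fold change was -0.53 (95% interval -1.25 to 0.19) as scanned, -0.15 as tabulated and -0.50 without the exchanged arrays. Without rhTM replicate 1 it was -0.24 as scanned and 0.24 as tabulated.

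Fgfr1, the receptor found widely in mesenchymal and endothelial cells, had the smallest spread of the receptors. Relative signals were 11.6, 10.71 and 12.3 in saline-treated mice and 14.5, 10.5 and 13.5 in rhTM-treated mice. The highest 2 values were those of rhTM replicates 1 and 3, and the lowest was that of rhTM replicate 2. Its log2 fold change came to 0.14 (95% interval -0.22 to 0.51) as scanned, 0.23 as tabulated and 0.28 without the exchanged arrays, where the groups did not overlap. Leaving out rhTM replicate 1, its highest array, gave 0.052 as scanned and 0.16 as tabulated. The other 3 Fgfr1 probes gave -0.10, 0.04 and -0.17 as scanned and positive values as tabulated, and the mean over all its probes was -0.023. In that order, the first was also highest on rhTM replicate 1, the next was lowest there, and the last was highest on saline replicate 1.

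Fgfr2, the receptor of FGF7 and FGF10 on epithelium, overlapped between groups under both assignments. Its relative signal was 0.813, 0.857 and 0.573 in the saline group and 0.512, 0.739 and 0.718 in the rhTM group. The saline group held the highest 2 values, rhTM replicate 1 the lowest and saline replicate 3 the next. On the log2 scale the groups differed by -0.19 (95% interval -0.70 to 0.33) as scanned and -0.09 as tabulated, and a second probe gave -0.19 and -0.21. Without rhTM replicate 1 it was -0.016 as scanned and 0.0997 as tabulated. Leaving out saline replicate 3 instead gave -0.37 and -0.25 in the same order, and leaving out saline replicate 2 gave -0.076 and 0.039.

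Fgfr3, which with Fgfr4 is needed for the late formation of alveoli in mice, had one array apart from the other 5. The saline arrays read 10.68, 9.89 and 9.99 and the rhTM arrays 6.54, 10.71 and 9.88 in relative signal. Leaving out rhTM replicate 1, the other 5 arrays spanned a log2 range of only 0.12, whereas with it the range was 0.71. The log2 fold change was -0.20 (95% interval -0.68 to 0.27) as scanned and -0.21 as tabulated, and it was 0.015 and 0.012 in the same order without rhTM replicate 1. A second Fgfr3 probe was also lowest on that array and gave -0.48 as scanned and -0.31 as tabulated.

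Fgfr4, the remaining receptor, was nearly constant in the saline group and spread in the rhTM group. Relative signals were 0.788, 0.790 and 0.796 in saline-treated mice and 0.636, 1.18 and 0.879 in rhTM-treated mice. The rhTM arrays lay on both sides of the saline arrays. Its log2 fold change came to 0.14 (95% interval -0.39 to 0.67) as scanned, -0.25 as tabulated and -0.084 without the exchanged arrays, so its sign depended on the assignment. Its second probe, also lowest on rhTM replicate 1 and highest on rhTM replicate 2, gave 0.02 as scanned and -0.75 as tabulated.

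Most members took their lowest or highest value on a single array. Of the 10 members, 7 were lowest of the 6 arrays on rhTM replicate 1 (Fgf7, Fgf9, Fgf10, Fgf18, Fgfr2, Fgfr3 and Fgfr4), beside 26.6% of all genes. Another 2, Fgf2 and Fgfr1, were highest there, beside 29.8% of all genes, and Fgf1 was neither. These ranks are of the brightest probes, and a dimmer Fgfr1 probe was lowest on that array. The distance of rhTM replicate 1 from the mean of the other 5 arrays had a median size of 0.72 on the log2 scale over the members and 0.24 over all genes. The largest distances were -1.29 for Fgf9, -1.01 for Fgf18, 0.92 for Fgf2 and -0.84 for Fgf7. On the same array all 6 alveolar type 2 markers were lowest, with a summed relative signal of 878 beside 965 to 1445 on the other 5 arrays, and none of them was at 0. The 5 endothelial markers summed to 137 there, beside 88.4 to 107.5 on the other arrays, with 3 highest and 2 lowest on this array and none at 0. No array carried a label that sets it apart, and the part of cell type or RNA quality in this array's values was not tested. Without rhTM replicate 1, 6 of the 10 members were higher in the rhTM group as scanned, beside 50.1% of all genes. The table without that array called 561 genes by limma, 3.44% of all genes, and 0 members, and put 7 members higher, beside 44.3% of all genes.

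**Figure D3:**
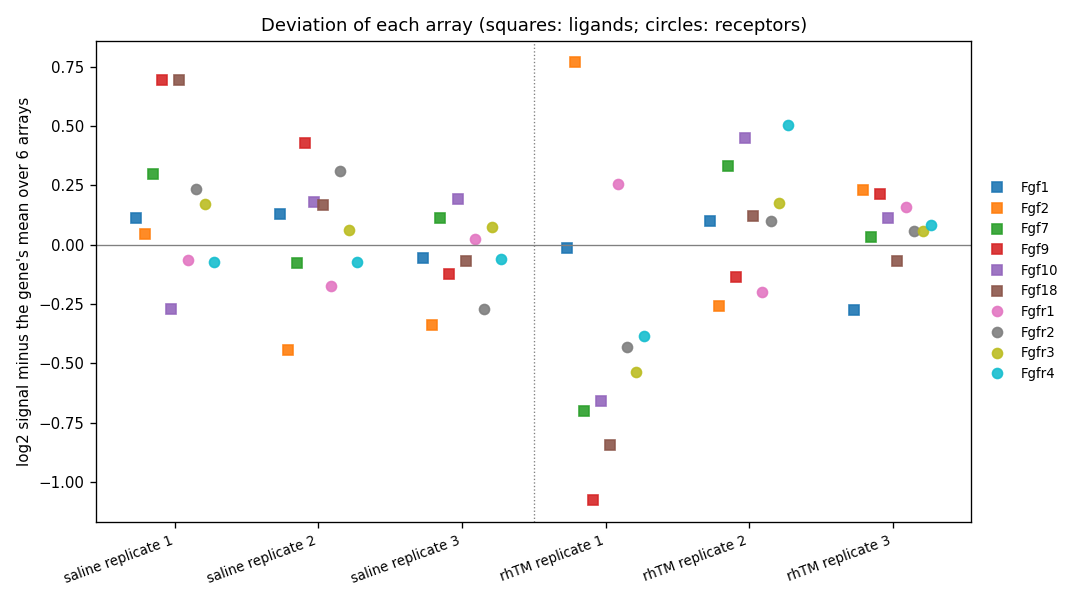
Deviation of each array from the gene's mean over the 6 arrays, on the log2 scale, for the 6 ligands (squares) and 4 receptors (circles); the dotted line divides saline from rhTM arrays as scanned. On rhTM replicate 1, 7 members lie below every other array, Fgf2 and Fgfr1 lie above, and Fgf1 lies near 0.

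Within slides as scanned, slide 1 compared saline replicates 2 and 3 with rhTM replicates 1 and 2, and slide 2 compared saline replicate 1 with rhTM replicate 3 alone. The sign was the same on both slides for 8 of the 10 members, the exceptions being Fgf1 and Fgf10. Fgf2 was higher in rhTM on both slides, with log2 differences of 0.65 on slide 1 and 0.19 on slide 2. Fgf9 was lower on both, with differences of -0.76 and -0.48, and so was Fgf18, with -0.41 and -0.76. The other members with one sign were Fgf7 (-0.20 and -0.26), Fgfr1 (0.10 and 0.22), Fgfr2 (-0.19 and -0.18), Fgfr3 (-0.25 and -0.11) and Fgfr4 (0.13 and 0.16). Fgf10 was lower on slide 1 (-0.29) and higher on slide 2 (0.38). The slide 2 values have no replicate. Their saline array, saline replicate 1, had a slope of the spike-in RNAs of 0.826, which the scanner software marked as out of range. Without saline replicate 1 the log2 fold change as scanned was -0.48 for Fgf9, -0.31 for Fgf18 and 0.64 for Fgf2.

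Ligands and receptors were also compared with each other across the 6 arrays, where the exchanged labels play no part. Over the 24 pairs of a ligand and a receptor, no correlation passed the exact permutation test after Benjamini-Hochberg adjustment. The closest pair was Fgf7 and Fgfr3, with a Pearson r of 0.97 (exact p = 0.00417, adjusted 0.10) and a Spearman rho of 0.94 (exact p = 0.0167, adjusted 0.35). Leaving out rhTM replicates 1 and 2, the arrays farthest from the Fgf7 median, left an r of 0.91. Fgf9 and Fgfr2 had an r of 0.88 (exact p = 0.0139, adjusted 0.14) and a rho of 0.77 (exact p = 0.103, adjusted 0.35), with an r of 0.74 without the 2 farthest arrays. Fgf2 and Fgfr1 were highest on rhTM replicate 1 by their brightest probes. Their r was 0.85 (exact p = 0.025, adjusted 0.14) and their rho 0.71 (exact p = 0.136, adjusted 0.35). That relation rested on rhTM replicates 1 and 3, since without them r was 0.23. Slide 1 held 4 arrays and slide 2 held 2, too few for a value within a slide.

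The genes whose pattern over the 6 arrays was most like that of Fgf9, among 16369 genes, were Gemin4 (Pearson r 0.994), Krt80 (0.993) and Mmgt2 (0.992). For Fgfr3 they were Gm14325 (0.998), Kank3 (0.996) and Kynu (0.996). These values describe 6 points that share each array's scaling, and rhTM replicate 1 was the lowest of the 6 for both Fgf9 and Fgfr3.

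The other genes of FGF signalling did not pass the test either. Of 71 genes in 6 lists, 58 were tested, and limma called 0 of them under either assignment. As scanned, the mean of 27 of the 58 was higher in rhTM-treated mice and that of 31 lower. The median log2 fold change was -0.0071, and 1 gene had an unadjusted p under 0.05, beside 1.87% of all genes. Tabulated values put 28 higher, and 13 had an unadjusted p under 0.05, beside 14.0% of all genes. As scanned, 4 of them lay wholly above in the rhTM group and 1 wholly below, beside 2.95% and 2.57% of all genes, and as tabulated 7 and 8, beside 9.68% and 12.0%.

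Among the other FGF ligands, 6 of 16 passed the filter on dim probes, and 3 of these were higher. Fgf13, a member of the family that stays inside the cell and binds sodium channels, had the lowest unadjusted p of the pathway, 0.0046 by limma. Its relative signal was 0.0668, 0.0756 and 0.0586 in the saline group and 0.114, 0.109 and 0.0901 in the rhTM group. Every rhTM array lay above the saline arrays, with a log2 fold change of 0.64 and a limma adjusted p of 0.99994. As tabulated the groups overlapped, with a log2 fold change of 0.17.

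Of the co-receptors and FGF-binding proteins, 6 of 8 were tested, and 1 was higher as scanned and 3 as tabulated. The gene higher as scanned was Fgfbp3, a carrier that frees FGFs from the matrix. It was at 0.363, 0.364 and 0.383 in the saline group and 0.415, 0.409 and 0.409 in the rhTM group. The groups did not overlap, but the log2 fold change was small at 0.15, and it was 0.04 as tabulated. The single pathway gene called from tabulated values with a slide block was Flrt1, a membrane protein that binds FGF receptors, chosen here after its values were seen. It was at 0.00761 on rhTM replicate 1, on the log2 scale -7.04 and so under the lowest signal well above background on that array (-5.15), and at 0.0746 to 0.0939 on the other 5 arrays. Without rhTM replicate 1 its log2 fold change was -0.15.

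The adaptors and kinases below the receptor were all tested, with 8 of 22 higher and a median log2 fold change of -0.01. Akt1, a kinase below PI3 kinase, was at 27.6, 34.0 and 28.4 in the saline group and at 26.1, 27.4 and 25.0 in the rhTM group. All rhTM arrays lay below the saline arrays, with a log2 fold change of -0.19 as scanned and -0.18, with overlap, as tabulated.

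Feedback inhibitors, which FGF signalling itself induces, were higher for 6 of the 10 tested. Spred2, which restrains the step from RAS to RAF, was at 0.337, 0.373 and 0.353 in the saline group and at 0.470, 0.381 and 0.440 in the rhTM group, without overlap and with a log2 fold change of 0.28. It was 0.16 with overlap as tabulated. Spry2 and Spry4, the sprouty inhibitors of receptor kinases, had log2 fold changes of 0.09 and 0.30 as scanned. Spry4 was at 1.96, 1.16 and 0.933 in the saline group and at 1.46, 1.20 and 2.28 in the rhTM group, so its highest 2 values were on the arrays of slide 2. As tabulated, which puts both of these arrays in the rhTM group, its log2 fold change was 0.78 with no overlap and a limma adjusted p of 0.314. Dusp6, the phosphatase that switches off ERK, was at 15.8 to 17.1 in the saline group and 14.7 to 18.4 in the rhTM group, with a log2 fold change of -0.0070.

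Of the transcriptional targets, 5 of 7 were higher as scanned and 3 of 7 as tabulated. Etv4 and Etv5, the ETS factors used as readouts of FGF signalling, had log2 fold changes of opposite sign, 0.24 and -0.22, neither past the test. Etv5 was at 24.1, 28.1 and 20.8 in the saline group and at 14.6, 29.5 and 20.6 in the rhTM group. Like 7 of the members it was lowest on rhTM replicate 1, and without that array its log2 fold change was 0.03. Fos, an immediate early gene, was at 4.36, 4.92 and 4.80 in the saline group and at 8.21, 4.96 and 5.25 in the rhTM group, with no overlap and a log2 fold change of 0.35. The table gave 0.23 with overlap, and 0.12 remained as scanned without rhTM replicate 1.

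Heparan sulfate, the cofactor of FGF binding, was represented by 7 genes of its synthesis, trimming and core proteins, of which 4 were higher. Hs6st1, which adds sulfate groups at the 6-O position, was at 8.35, 7.01 and 7.07 in the saline group and at 9.31, 7.18 and 9.15 in the rhTM group. The rhTM group held the highest 2 values, and rhTM replicate 2 lay between the saline arrays. On the log2 scale the groups differed by 0.19 as scanned and 0.33 as tabulated, where the groups did not overlap and the limma adjusted p was 0.314.

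**Figure D4:**
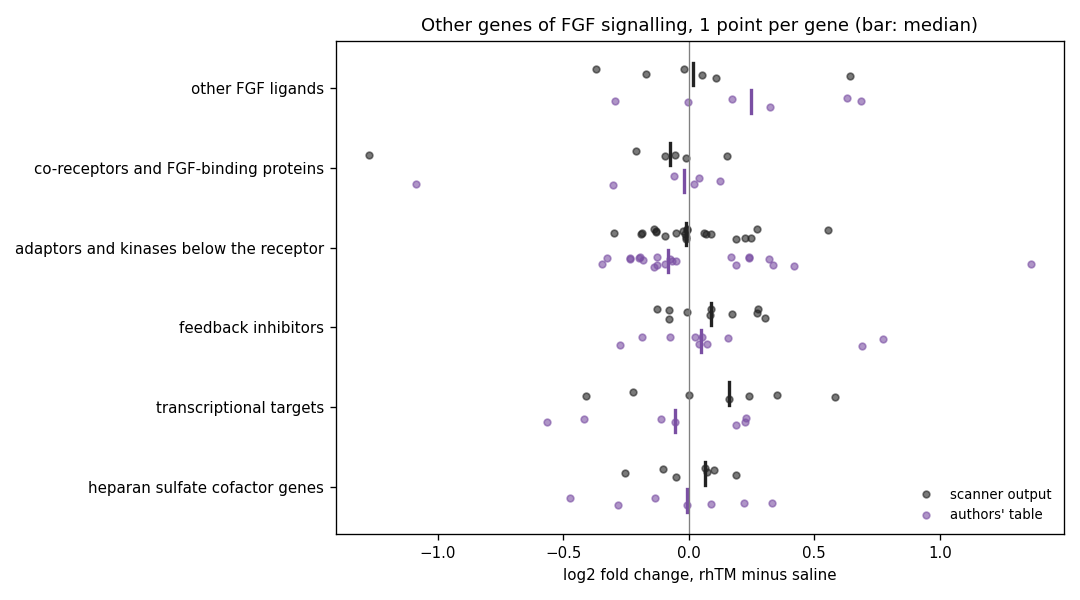
Log2 fold change, rhTM minus saline, of 58 other genes of FGF signalling in 6 lists, 1 point per gene, as scanned (black, scanner output) and as tabulated (purple, authors' table), with bars at the medians. The medians lie between -0.07 and 0.16 as scanned and between -0.08 and 0.25 as tabulated, and points lie on both sides of 0 in every list.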

How the data were processed

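Lung RNA of 6 mice was measured on 6 arrays, grouped by their sample labels. The files deposited by the authors hold, for each array, the intensity of every spot after Agilent Feature Extraction 10.7.3.1 (9.1 in the submitters' processing notes) had subtracted background and evened out trends across the array. A further deposited file holds 1 intensity per probe for these arrays, here called the authors' table. Neither kind of file was scaled between arrays by the authors. The table is on a linear scale and not centred, with column medians of 77.5 to 90.9. Probe coordinates are not given, because the design of the array follows an older build than the gene table used here.

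From the deposited intensity values, control spots and outlier spots were left out, spots of a probe were averaged, and 398 of 56605 probes without a usable spot on some array were dropped. Each array's log2 values had their 75th percentile subtracted, which was a signal of 675 to 850. Between 36002 and 40503 probes were well above background on an array. Accessions were matched without versions to RefSeq genes of GRCm38.p6, which named 32994 probes. A probe was kept when at least 1 group had it well above background on its 3 arrays, and the brightest probe stood for its gene. Groups were compared with limma 3.58.1 in R 4.3.3 (lmFit, eBayes, Benjamini-Hochberg adjustment over all genes, threshold 0.05), and by exact two-sided permutation tests in Python 3.11.15. The fits were tested on simulated data. Intervals are limma's 95% intervals. In group comparisons on all arrays, p-values measure the spread between 3 mice a group. The exception is the fit of tabulated values with a slide block, where the difference rests on rhTM replicate 1 against the saline arrays. Fits that leave out arrays have fewer than 3 mice in at least 1 group. The p-values of ligand and receptor pairs come from permutations over all arrays of both groups. In every case the number of arrays limits the precision.

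Named were all members, pathway genes with an unadjusted p under 0.05 or without overlap of the groups as scanned (at most the 4 largest log2 fold changes a list), Spry2, Spry4, Dusp6, Etv4, Etv5 and Hs6st1, and the 3 genes most alike to the ligand and the receptor of largest change. The members, the gene lists and the tests were chosen with earlier results of these data known. Alternatives were the tabulated values, alone and with a slide block, leaving out both exchanged arrays, normexp with an offset of 50 on median signals, quantile normalization, another set of probes for the 75th percentile, no filter and a stricter one, a block for the slide or for the replicate number, the mean over the probes of a gene, leaving out 1 array at a time and the methods' t-test. Leaving out each array of the table was added after the data were seen.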

Additional observations from a re-analysis of the deposited data

How the results depend on the processing

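Over 18 alternatives, 170 of 180 member values kept the sign they had as scanned, and 1 passed the adjusted threshold. The groups of 2 members did not overlap as tabulated, of 2 with a slide block added, and of 5 without the 2 exchanged arrays, beside 0 as scanned. The shares of all genes without overlap were 21.7%, 21.7%, 41.2% and 5.52% in the same order. Tabulated values fitted with a slide block called 432 genes and 1 member, beside 0 and 0. The log2 fold change of Fgfr4 turned to -0.25 as tabulated, -0.51 with a slide block added and -0.084 without the exchanged arrays. That of Fgfr1 turned to -0.023 with the mean of its probes. Normexp, quantile normalization, the other 75th percentile, both filters, a slide block on the scanned values and the methods' t-test changed no sign and no call of a member. Normexp moved values by over 1.5 times for Fgf9 (-0.34), Fgf2 (0.33) and Fgf10 (-0.028). The cause of the changes was not tested.

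Leaving out 1 scanned array at a time, the members higher in the rhTM group numbered 2 to 6, and those without overlap 0 to 4, beside 8.85% to 24.4% of all genes without overlap in these fits. The log2 fold change ran from -0.44 to 0.071 for Fgf7, from -0.31 to 0.25 for Fgf10, from -0.21 to -0.018 for Fgf1, from 0.052 to 0.28 for Fgfr1, from -0.34 to 0.015 for Fgfr3 and from -0.081 to 0.36 for Fgfr4. For Fgf7 and Fgfr3 the sign turned only without rhTM replicate 1, for Fgfr4 only without rhTM replicate 2, and for Fgf10 without rhTM replicate 1, saline replicate 2 or saline replicate 3. Members without overlap numbered 4 without saline replicate 3, beside 15.6% of all genes, and 4 without rhTM replicate 2, beside 24.4%. From the table, leaving out 1 array at a time gave 0 to 561 called genes, 2 to 7 members higher and 2 to 5 without overlap, beside 26.6% to 45.9% of all genes without overlap. There the log2 fold change ran from -0.46 to 0.043 for Fgf7, from -0.49 to 0.40 for Fgf9, from -0.53 to 0.24 for Fgf18, from -0.25 to 0.10 for Fgfr2 and from -0.34 to 0.012 for Fgfr3. The 561 genes and the highest of these values came without rhTM replicate 1.

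The replicate numbers of the labels did not pair the samples, since the deviations of same-numbered arrays correlated at -0.30, 0.44 and -0.45. With the replicate block, 0 genes and 0 members were called, as without it. Depth in the sense of signal over background limited Fgf9 most, with an error of up to 20.2% of its signal.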

Other observations

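Fgf23, a bone-derived hormone of phosphate balance, was among the other FGF ligands tested and had values that followed the slide. Chosen after its values were seen, it was at a relative signal of 27.1 and 29.6 on the 2 arrays of slide 2, saline replicate 1 and rhTM replicate 3 as scanned, and at 13.4 to 14.0 on the 4 arrays of slide 1. Its log2 fold change was 0.05 as scanned and 0.69 as tabulated, which puts both arrays of slide 2 in the rhTM group. Other genes, 139 in number and without Fgf23, were at least 2-fold higher on both arrays of slide 2 than on every array of slide 1. The slope of the spike-in RNAs was 0.826 on saline replicate 1 as scanned, which the scanner software marked as out of range, and 1.07 to 1.09 on the other 5 arrays. The part of the slide in the Fgf23 values was not tested.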
